A study of Danio rerio with 6 samples.

Results

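The genes described here code for voltage-gated channels, for potassium channels of every gating type and for their auxiliary subunits. They were chosen by symbol from the deposited count table: every gene whose name begins with kcn, with scn followed by a number and a or b, with cacn, with hcn and a number, or with clcn, in upper or lower case. This took 169 of the 23150 genes of the table. RNA was measured by strand-specific, polyA-selected RNA-seq in pools of whole zebrafish embryos at 18 hours post fertilization (hpf), with chorion and yolk removed, to find the changes in gene expression that follow the loss of *dusp2* and *dusp6*, which code for phosphatases of the ERK pathway. The mutant group held 3 libraries of dusp2um287/um287;dusp6um286/um286 embryos, which came from parents homozygous for both deletions, and the wildtype group held 3 libraries of dusp2+/+;dusp6+/+ embryos of the Ekkwill strain. Each *dusp* gene is represented by 1 mutant allele, the animals of a pool were not told apart, and parents and embryos both lacked the phosphatases in the mutant group. The paper reports that many embryos of such parents stall at the first cell division and die well before the stage sampled. The mutant pools can therefore hold only the survivors. Wildtype embryos came from other parents, so genotype differed together with parents and clutch. The parts of survival, parents, clutch and exact stage in the differences between the groups were not tested.

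Voltage-gated channels open when the potential across a membrane changes. Sodium channels carry the upstroke of the action potential, calcium channels turn depolarization into contraction or transmitter release, and voltage-gated potassium channels return the membrane to rest. Inward rectifiers and leak channels set the resting potential, CLC proteins pass chloride across plasma and endosomal membranes, and HCN channels drive rhythmic firing. In zebrafish, mutations in these genes alter muscle excitation, the heartbeat, fin growth and the pigment pattern. Embryos at the stage studied are forming somites, and their first spinal neurons begin to drive contractions of the trunk muscle.

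The libraries held between 37989443 and 44657980 expected counts in mutants and between 36310355 and 45161306 in wildtypes. Values per library are given as CPM (counts scaled to library depth, with TMM factors), in the order A, C and D for mutants and A, B and C for wildtypes, and levels of different genes are not compared because they were not divided by gene length. *dusp6* fell to 31.1 ± 2.25 CPM in mutants, against 221 ± 8.23 CPM in wildtypes, and *dusp2* fell to 0.140 ± 0.0602 CPM, against 1.28 ± 0.314 CPM (SD, n = 3 each). Mutant library D stood apart from mutants A and C, its counts differing from theirs with chi-square values per degree of freedom of 15.5 and 12.8. The value was 4.34 between mutants A and C and 3.62 to 5.57 between wildtypes. Mutant D was the lowest mutant library in 56 of the 115 channel genes tested, as wildtype B was the lowest wildtype library in 53. Pools are the only replicates named, so p-values measure the spread between these libraries, which may be technical. In whole embryos, fewer cells of a type and less RNA per cell cannot be told apart.

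Most channel genes were near the limit of what these libraries can measure. The filter on low counts left 115 of the 169 genes to test, and the 54 others summed to between 11 and 72.4 counts over all 6 libraries. Among the genes tested the median level was 0.984 CPM, against 9.32 CPM over all 20021 genes tested. Wherever a gene is said to have risen or fallen, its adjusted p (edgeR's quasi-likelihood test, Benjamini-Hochberg over all genes tested) was under 0.05.

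With a fold change over 2 in addition, 8 of the 115 channel genes were called (6.96%), where the same rule called 4.95% of all genes tested. Among genes of like low level the order was the other way round, and among those of middle level it was the same, as given below. The 4 that were higher in mutants were the calcium channel genes *cacng7b* and *cacna1ba* and the inward rectifier genes *kcnj1a_4* and *kcnj1a_5*, and 2.54% of all genes were called in that direction. The 4 that were lower were the calcium channel genes *cacng1* and *CACNA1F* and the potassium channel genes *KCNA10* and *kcnk2b*, in a direction that held 2.42% of all genes. At any fold change 28 channel genes passed (24.3%), where 34.5% of all genes did. Of these 12 rose, against 17.4% of all genes, and 16 fell, against 17.1%. The libraries of the groups did not overlap in 40 of the 115 (34.8%), against 49.1% of all genes. The median log2 fold change was -0.0594 over the channel genes tested and -0.000628 over all genes tested.

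Called shares depended on level. All genes were split by mean level into 5 bins of like size. The lowest bin held 64 of the channel genes tested, of which 9 passed at any fold change (14.1%), against 18.4% of all genes in that bin. The middle bin, between 5.20 and 16.2 CPM, held 19 channel genes, of which 12 passed (63.2%), against 37.0% of all genes there. In the second and the fourth bin the shares were 17.4% and 25.0% of channel genes, against 28.4% and 41.7% of all genes, and the highest bin held 1 channel gene. With a fold change over 2 in addition, 6 of the 64 channel genes of the lowest bin were called (9.38%), against 14.3% of all genes there. In the middle bin 2 of 19 were called (10.5%), against 2.52% of all genes there. The other bins held no such channel gene. Counts over families are given with their medians as a description of these libraries. Over all genes tested, 34.5% passed at any fold change. Counts over families and lists of markers are to be read beside that share.

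**Figure D1:**
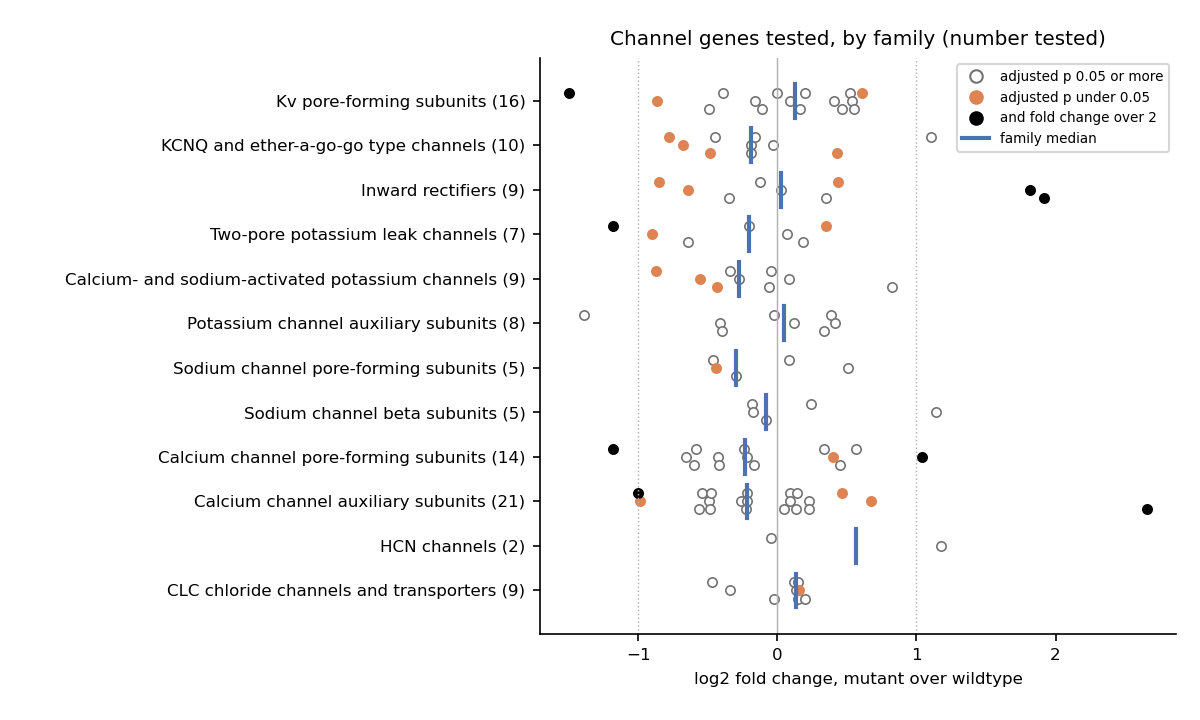
Log2 fold change, mutant over wildtype, of each of the 115 channel genes tested, by family, with the number tested in parentheses. Open circles did not pass, orange circles had an adjusted p under 0.05, black circles had a fold change over 2 as well, and the blue line is the family median. Calls lie on both sides of 0, with medians of families of at least 5 genes between -0.29 for sodium channel pores and 0.14 for CLC genes.

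The plot of fold changes by family shows calls in 9 of 12 families. Voltage-gated (Kv) potassium channel pores were tested for 16 of 27 genes, of which 1 rose and 2 fell. The riser was *kcnb2*, a delayed rectifier gene, with 7.55, 5.94 and 7.66 CPM in mutants, against 4.02, 4.75 and 5.01 CPM in wildtypes. Every mutant library was above every wildtype library, and the gene was 1.53-fold higher (log2 fold change 0.61, SE 0.131, adjusted p = 0.00425). *KCNA10*, a Shaker-type gene, fell on few counts: 6, 7 and 2 in mutants, against 12, 15 and 15 in wildtypes (log2 fold change -1.50, SE 0.446, adjusted p = 0.0231). The groups did not overlap, but the call was lost without mutant D or any single wildtype library, with an adjusted p of up to 0.0844. *kcnc1a*, a Shaw-type gene that in mammals serves fast-spiking neurons, had 0.431, 0.344 and 0.427 CPM in mutants, against 0.698, 0.747 and 0.740 CPM in wildtypes. It fell 1.82-fold with no overlap (adjusted p = 0.0341), and leaving out any 1 of the 6 libraries lost the call, at most with an adjusted p of 0.117.

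KCNQ and ether-a-go-go type channels slow or end trains of action potentials, and 10 of their 18 genes were tested, of which 1 rose and 3 fell. *kcnh6*, listed as a synonym of *kcnh6a*, codes for the channel that repolarizes the zebrafish heart. It had 7.38, 6.58 and 5.82 CPM in mutants, against 11, 12 and 11 CPM in wildtypes. All mutant libraries were below all wildtype libraries, 1.71-fold on average (log2 fold change -0.78, SE 0.1, adjusted p = 0.000189), and the log2 value stayed between -0.86 and -0.70 with each library left out. Its relative *kcnh2a* had 1.37 ± 0.369 CPM in mutants and 1.53 ± 0.286 CPM in wildtypes (SD, n = 3 each), with overlapping groups (log2 fold change -0.16, SE 0.238, adjusted p = 0.640). Of 13 heart markers tested 3 rose and 2 fell, and their summed level was 77.7 to 91.7 CPM in mutants, against 71.8 to 78.4 CPM in wildtypes. Their part in the fall of *kcnh6* was not tested.

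Both *kcnq5* genes, which code for subunits of the M-current of neurons, fell. *kcnq5a* had 4.19, 4.77 and 4.06 CPM in mutants, against 7.16, 5.31 and 5.74 CPM in wildtypes (log2 fold change -0.48, SE 0.134, adjusted p = 0.0167), and *kcnq5b* had 0.887, 1.31 and 0.961 CPM, against 1.88, 1.41 and 1.76 CPM (log2 fold change -0.68, SE 0.223, adjusted p = 0.0356). Neither gene's groups overlapped, though without wildtype A the adjusted p of *kcnq5a* was 0.0732, and that of *kcnq5b* reached 0.119 with a library left out (mutants A and D and wildtypes A and C each lost the call). *KCNH4*, of the ether-a-go-go-like branch, rose 1.35-fold, with 7.72, 9.22 and 8.45 CPM in mutants, against 6.73, 6.10 and 6.03 CPM in wildtypes and no overlap (adjusted p = 0.00707). *kcnq1*, whose mammalian product repolarizes the heart, had 0.655 ± 0.246 CPM in mutants and 0.901 ± 0.0596 CPM in wildtypes (SD, n = 3 each) and did not pass (adjusted p = 0.289).

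Inward rectifiers pass potassium more easily into the cell than out of it, and 9 of their 17 genes were tested, of which 3 rose and 2 fell. The rises with a fold change over 2 were both of *kcnj1a* genes, whose mammalian relative secretes potassium in the kidney tubule. In zebrafish *kcnj1a* is known from the ionocytes of the skin. In the gene order of assembly GRCz12tu, *kcnj1a.6* to *kcnj1a.1* follow each other without another named gene between them, and 5 of these were listed in the count table. *kcnj1a_4* had 26.0, 36.2 and 16.9 expected counts in mutants, against 9.02, 5.58 and 5 in wildtypes (log2 fold change 1.92, SE 0.408, adjusted p = 0.00419). *kcnj1a_5* had 18.2, 12.8 and 12.6 in mutants, against 4.01, 3.99 and 3.99 in wildtypes (log2 fold change 1.82, SE 0.422, adjusted p = 0.00680).

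Both genes were higher in every mutant library than in any wildtype library and passed with each library left out. Their expected counts are not whole numbers, because RSEM divided reads between similar genes, so that the split among the 5 is uncertain. The counts were therefore also summed into 1 unit before the fit, an alternative chosen after seeing the data. The sum was 2.13, 1.76 and 1.58 CPM in mutants, against 0.752, 0.744 and 0.670 CPM in wildtypes. Mutants were higher without overlap, with a log2 fold change of 1.33 (SE 0.216, adjusted p = 0.000809) and values between 1.21 and 1.42 with each library left out.

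**Figure D2:**
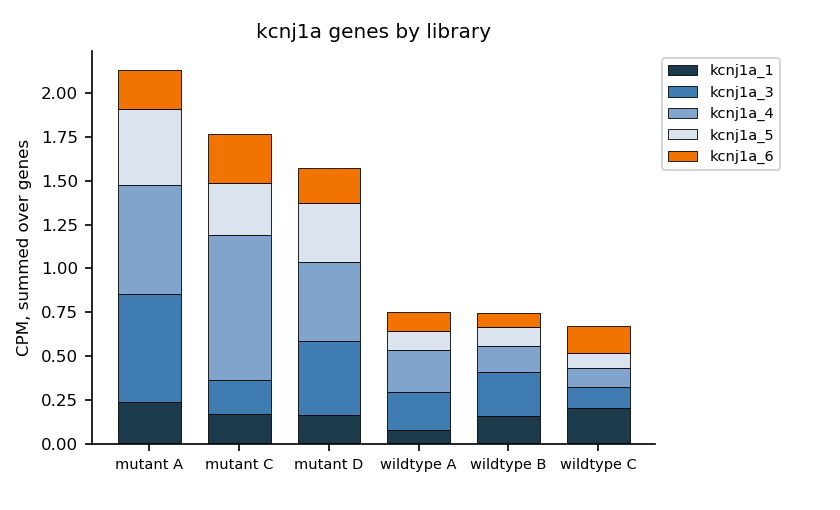
CPM of the 5 listed *kcnj1a* genes, stacked for each library, mutants left and wildtypes right. The summed height is 1.58 to 2.13 CPM in mutants and 0.670 to 0.752 CPM in wildtypes, and the share of each gene varies between libraries of 1 group.

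The stacked bars show that the sum varied less within a group than its parts: *kcnj1a_3* had 25.6, 8.44 and 15.8 expected counts in the mutants alone. *kcnj1a_3*, *kcnj1a_6* and *kcnj1a_1* were each too low to be tested alone, and *kcnj1a_1* held a rounded sum of 23 counts in mutants, against 18 in wildtypes. Of 15 ionocyte and epidermis markers tested 7 rose and none fell, with a summed level of 31500 to 38630 CPM in mutants, against 23220 to 24590 CPM in wildtypes. The list holds genes of ionocytes and of epidermis together, and their median level was 56.5 CPM. Its sum therefore rests on the most abundant genes and does not measure ionocytes alone. Among 15 pronephros markers 1 rose and 3 fell, and they summed to 217 to 229 CPM in mutants, against 248 to 256 CPM in wildtypes. The part of either cell type in the rise of *kcnj1a* was not tested.

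*kcnj1b*, the paralogue elsewhere in the genome, fell, with 1.75, 1.47 and 1.31 CPM in mutants, against 2.36, 1.87 and 2.81 CPM in wildtypes (log2 fold change -0.64, SE 0.202, adjusted p = 0.0296). The groups did not overlap, but the call was lost without mutant C, mutant D, wildtype A or wildtype C, with an adjusted p of up to 0.139. *kcnj13*, which is needed for the stripe pattern of the adult zebrafish, rose 1.36-fold, with 10.3, 10.4 and 9.69 CPM in mutants, against 8.64, 6.62 and 7.13 CPM in wildtypes (adjusted p = 0.00784). Its libraries did not overlap between the groups. Among 11 pigment and neural crest markers 1 rose and none fell, and their sum was 274 to 309 CPM in mutants, against 257 to 263 CPM in wildtypes. Their part in the rise of *kcnj13* was not tested. *kcnj11*, the pore of ATP-sensitive potassium channels in muscle and pancreas, is described with the muscle genes.

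Tandem-pore leak channels hold the resting potential, and 7 of 15 were tested, of which 1 rose and 2 fell. *kcnk5a* had the lowest adjusted p of all channel genes. It codes for a leak channel that opens in alkaline medium, and it had 14.1, 14.1 and 14.3 CPM in mutants, against 29.4, 23.5 and 26.6 CPM in wildtypes. The 3 mutant libraries lay close together and far below the wildtypes, a 1.87-fold fall (log2 fold change -0.90, SE 0.0810, adjusted p = 1.61e-05) that stayed between -0.98 and -0.83 with each library left out.

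The paralogue *kcnk5b*, in which zebrafish mutations with overgrown fins lie, had 17.0, 18.6 and 18.2 CPM in mutants, against 15.1, 15.4 and 16.8 CPM in wildtypes. Mutant libraries were all higher here, by 0.18 on the log2 scale, and the gene did not pass (SE 0.0715, adjusted p = 0.0657). *kcnk1a*, a weak inward rectifier of the leak family, rose 1.28-fold, with 28.5, 27.4 and 30.4 CPM in mutants, against 22.9, 22.4 and 22.2 CPM in wildtypes (adjusted p = 0.00110), without overlap. The low gene *kcnk2b*, of the stretch-sensitive type, had 14, 9 and 11 counts in mutants, against 30, 12 and 35 in wildtypes. Wildtype B overlapped the mutants, and its fall (log2 fold change -1.18, adjusted p = 0.0431) was lost without any of the mutants or without wildtype A or C, with an adjusted p of up to 0.158.

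*kcnk6*, with 30.5 ± 3.46 CPM in mutants and 29.0 ± 0.905 CPM in wildtypes (SD, n = 3 each), did not pass (adjusted p = 0.491). *kcnk9*, a leak channel gene of neurons, was below the filter and was picked after its values were seen: it had 0 counts in every mutant library, against 4, 6 and 5 in wildtypes. With a floor of 3 counts over the group, a count of 0 allows up to 0.0244 CPM in mutants. The wildtype level was 5.09-fold above that floor, with the wildtype counts taken as exact, so this is not a lower limit of the ratio.

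All 9 genes grouped by symbol with the calcium- and sodium-activated potassium channels were tested. Of these 3 fell while none rose (33.3% passed, against 34.5% of all genes), with a median log2 fold change of -0.27. *kcnn3*, of the small-conductance type, had 6.95, 7.27 and 4.76 CPM in mutants, against 8.77, 9.61 and 9.62 CPM in wildtypes. Every mutant was below every wildtype (log2 fold change -0.56, SE 0.138, adjusted p = 0.00962), with mutant D the lowest and a value of -0.40 without it. *kcnt1*, gated by sodium, had 0.655, 0.531 and 0.777 CPM in mutants, against 1.16, 1.05 and 1.34 CPM in wildtypes (log2 fold change -0.87, adjusted p = 0.0218). *kcnma1a*, the large-conductance pore, had 6.54, 5.27 and 5.37 CPM in mutants, against 7.59, 6.73 and 8.77 CPM in wildtypes (log2 fold change -0.43, adjusted p = 0.0215). Neither overlapped between groups, and the calls were lost without mutant C or wildtype C for both, and without wildtype A for *kcnma1a*, with an adjusted p of up to 0.0917 for *kcnt1* and 0.105 for *kcnma1a*. *KCNU1*, the best counted gene of this group, matched no symbol or synonym of assembly GRCz12tu and was placed here by its symbol alone. It had 8.55 ± 0.496 CPM in mutants and 8.91 ± 0.478 CPM in wildtypes (SD, n = 3 each, adjusted p = 0.636).

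None of the 8 auxiliary potassium channel genes tested passed, of 13 listed, and none had an unadjusted p under 0.05. *kcnip1b*, a calcium-binding partner of Kv channels, was at 1.76 ± 0.113 CPM in mutants and 2.34 ± 0.524 CPM in wildtypes (SD, n = 3 each; adjusted p = 0.122), with wildtype B inside the mutant range.

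For sodium channels the rule matched 5 pore genes, all tested, of which *scn8aa* alone passed. This gene, which zebrafish need for normal responses to touch, had 4.46, 4.65 and 4.33 CPM in mutants, against 6.63, 5.04 and 6.53 CPM in wildtypes. The groups did not overlap (1.35-fold lower, log2 fold change -0.44, SE 0.125, adjusted p = 0.0192), and without wildtype A or C the adjusted p reached up to 0.0829. Its paralogue *scn8ab* had 1.11 ± 0.0954 CPM in mutants and 1.53 ± 0.187 CPM in wildtypes (SD, n = 3 each) and did not pass (adjusted p = 0.101). None of the 5 tested beta subunit genes of 7 passed, with 1 at an unadjusted p under 0.05.

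Of 31 neuron markers tested 3 rose and 4 fell (22.6% passed, against 34.5% of all genes). Their median log2 fold change was -0.23, with 24 values below 0. Their summed level was lower without overlap, 589 to 619 CPM in mutants, against 667 to 694 CPM in wildtypes. Their part in the falls of *scn8aa*, *kcnq5a*, *kcnq5b* and *kcnc1a* was not tested.

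Calcium channel pores were tested for 14 of 17 genes, of which 2 rose and 1 fell. *cacna1ba* codes for the N-type channel that opens at synapses. It had 7.07, 9.05 and 10.3 CPM in mutants, against 3.62, 4.19 and 4.94 CPM in wildtypes. The lowest mutant library was above the highest wildtype, and the gene was 2.06-fold higher (log2 fold change 1.04, SE 0.153, adjusted p = 0.000438). It passed the adjusted p with each library left out, but its log2 fold change was below the limit of 1 without mutant D (0.91) or wildtype A (0.94). Its direction was opposite to that of *scn8aa* and to the median of the neuron markers. The paralogue *cacna1bb* overlapped between groups and did not pass (log2 fold change -0.24, SE 0.257, adjusted p = 0.502).

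*cacna1ha*, a T-type gene that opens near rest, rose 1.32-fold, with 15.0, 15.4 and 13.8 CPM in mutants, against 10.8, 11 and 11.5 CPM in wildtypes and no overlap (adjusted p = 0.00198). The T-type relative *cacna1g* had 0.935, 0.688 and 0.668 CPM in mutants, against 1.13, 1.2 and 1.28 CPM in wildtypes and just missed the limit (log2 fold change -0.66, SE 0.240, adjusted p = 0.0535). *CACNA1F*, named for the channel of photoreceptor synapses, fell, with 18, 22 and 12 counts in mutants, against 48, 21 and 47 in wildtypes. Scaled to depth, wildtype B (0.560 CPM) was only just above mutant C (0.504 CPM), and the call (log2 fold change -1.18, SE 0.351, adjusted p = 0.0231) was lost without mutant A, wildtype A or wildtype C, with an adjusted p of up to 0.11. *cacna1c*, whose loss stops the ventricle in zebrafish, had 0.784 ± 0.228 CPM in mutants and 0.905 ± 0.412 CPM in wildtypes (SD, n = 3 each), and the sign of its difference was not stable (adjusted p = 0.678).

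**Figure D3:**
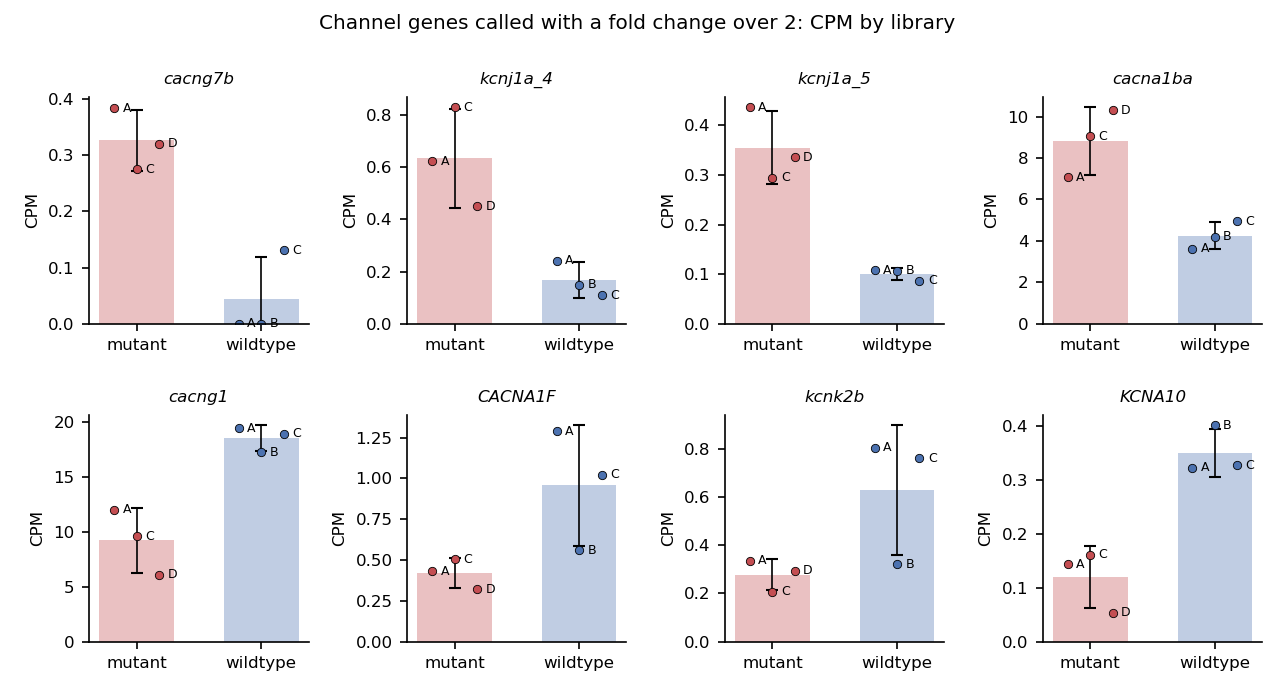
CPM of the 8 channel genes called with a fold change over 2, 1 panel each, by library (letters), mutants left and wildtypes right. Bars are means and whiskers SDs of 3 libraries; only *cacna1ba* and *cacng1* are above 2 CPM, and only *kcnk2b* overlaps between the groups.

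The auxiliary calcium channel genes, 21 of 26 tested, held 3 rises and 2 falls. The beta genes *cacnb2a* (log2 fold change -0.54, adjusted p = 0.116) and *cacnb4a* (-0.48, adjusted p = 0.235) did not pass, though their groups did not overlap. *cacnb4b* overlapped between groups and did not pass (0.14, adjusted p = 0.449). The alpha2delta gene *cacna2d4b* had 4.22, 3.94 and 2.7 CPM in mutants, against 2.41, 2.32 and 2.11 CPM in wildtypes. Mutants were higher without overlap (log2 fold change 0.67, SE 0.178, adjusted p = 0.0133), and the adjusted p reached up to 0.0596 without mutant A, mutant C or wildtype C. In mammals its product and that of *CACNA1F* belong to 1 channel of photoreceptors, and here these 2 entries moved in opposite directions. *CACNA1F* matched no symbol or synonym of assembly GRCz12tu. The entry *cacna1f*, which did match but was below the filter, had a rounded sum of 29 counts in mutants, against 12 in wildtypes. The paralogue *cacna2d4a* did not pass (log2 fold change 0.05, adjusted p = 0.849). Of 12 lens and eye markers tested 2 rose and 4 fell, with sums of 230 to 277 CPM in mutants, against 305 to 318 CPM in wildtypes. Their part in the values of *cacna2d4b* and *CACNA1F* was not tested.

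The gamma genes code for muscle calcium channel subunits and, in mammals, for proteins that carry glutamate receptors to the synapse. *cacng7b*, of the second kind, had 16, 12 and 12 counts in mutants, against 0, 0 and 6 in wildtypes. All wildtype counts came from library C (log2 fold change 2.66, SE 0.745, adjusted p = 0.0174). The adjusted p was 0.0684 without wildtype A and 0.0624 without wildtype B, and without wildtype C the 2 wildtype libraries that remain hold no counts. *cacng2a*, also of the receptor kind, stood just outside the fold limit, with 0.623, 1.00 and 0.587 CPM in mutants, against 1.5, 1.36 and 1.58 CPM in wildtypes (log2 fold change -0.99, SE 0.254, adjusted p = 0.0114). Groups did not overlap for this gene, and it passed with each library left out. *CACNG4*, of the same kind and below the filter, was picked after its values were seen. It had 1, 2 and 0 counts in mutants, against 10, 7 and 18 in wildtypes, a ratio of wildtype to mutant of 11.9 (95% exact interval 3.74 to 60.3, counting error only).

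The L-type channel of skeletal muscle couples the action potential to calcium release, and its subunits are coded by *cacna1sb* (pore), *cacnb1* (beta), *cacna2d1a* (alpha2delta) and *cacng1* (gamma). *cacng1* was the only 1 of the 4 to pass. It had 12, 9.61 and 6.09 CPM in mutants, against 19.5, 17.3 and 19.0 CPM in wildtypes. The highest mutant was well below the lowest wildtype, and the gene was 2.00-fold lower (log2 fold change -1.0, SE 0.174, adjusted p = 0.00126). Mutant D was the lowest library. Without it the log2 fold change was -0.79 and the adjusted p 1.28e-05, and without wildtype A or C the log2 fold change was -0.97 and -0.99, so that the call with a fold change over 2 was lost in each of these 3 fits.

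The pore gene *cacna1sb* had 17.2, 16.6 and 9.43 CPM in mutants, against 17.5, 14.5 and 16.8 CPM in wildtypes. Only mutant D lay outside the wildtype range (log2 fold change -0.17, SE 0.176, adjusted p = 0.484), and without it the value was 0.05. The paralogue *cacna1sa* had 11, 5 and 4.25 expected counts in mutants, against 13, 5 and 12 in wildtypes. That gene did not pass (log2 fold change -0.60, SE 0.513, adjusted p = 0.393). *cacnb1*, the gene of the immotile zebrafish mutant *relaxed*, had 21.2, 18.6 and 17.6 CPM in mutants, against 24.0, 20.3 and 22.6 CPM in wildtypes (log2 fold change -0.22, SE 0.0849, adjusted p = 0.0654). For *cacna2d1a* the mutants had 21.0, 16.6 and 14.0 CPM, against 20.6, 19.2 and 20.3 CPM in the wildtypes (log2 fold change -0.22, SE 0.117, adjusted p = 0.173). The difference between *cacng1* and its partners was not tested.

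**Figure D4:**
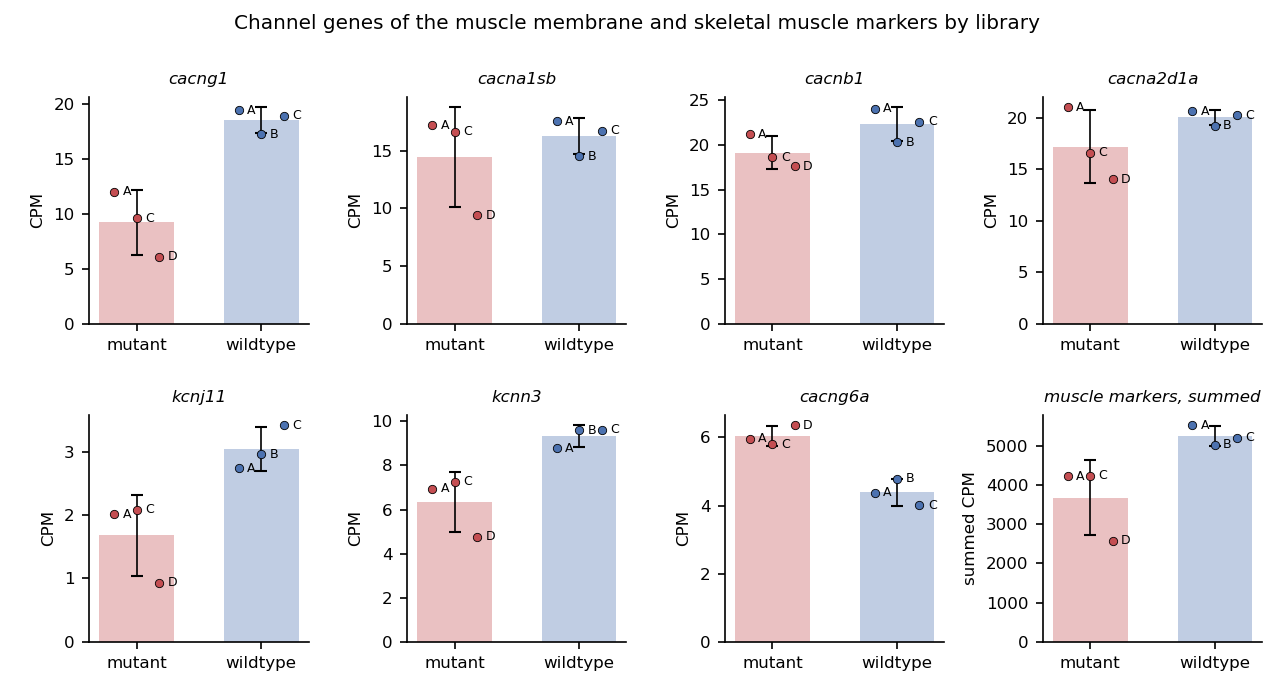
CPM by library (letters) of 7 chosen channel genes and of the summed skeletal muscle markers, mutants left and wildtypes right. Bars are means and whiskers SDs of 3 libraries. Among these panels mutant D is the lowest library in all except *cacng6a*, where all 3 mutants are above the wildtypes. *scn4ab* and *clcn1b* are not drawn and are given in the text.

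In the panels of muscle genes, *kcnj11* had 2.01, 2.09 and 0.935 CPM in mutants, against 2.74, 2.96 and 3.42 CPM in wildtypes, with no overlap (log2 fold change -0.85, SE 0.246, adjusted p = 0.0206). Without mutant D it was at -0.58 (adjusted p = 0.0170), and without wildtype B or C the adjusted p reached up to 0.0851. The gamma gene *cacng6a*, a relative of *cacng1*, rose, with 5.97, 5.80 and 6.36 CPM in mutants, against 4.37, 4.78 and 4 CPM in wildtypes (log2 fold change 0.46, SE 0.111, adjusted p = 0.00779). Its paralogue *cacng6b* had 0.959, 1.15 and 0.294 CPM in mutants, against 1.18, 1.25 and 0.958 CPM in wildtypes. That gene did not pass (log2 fold change -0.47, adjusted p = 0.359), and mutant D was again the lowest. Of the 31 skeletal muscle markers, all tested, 2 rose and 16 fell, with a median log2 fold change of -0.49. They summed to 4234, 4241 and 2577 CPM in mutants, against 5032 to 5530 CPM in wildtypes. Mutant D was thus far below the others, and mutants A and C were still below all wildtypes. The part of these markers in the falls of *cacng1* and *kcnj11* was not tested.

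HCN channels were tested for 2 of 5 genes, and neither passed, 1 of them at an unadjusted p under 0.05. That gene, *HCN2*, had 22, 19 and 12 counts in mutants, against 5, 4 and 14 in wildtypes (log2 fold change 1.18, SE 0.443, adjusted p = 0.0590). *hcn2b* had 6.83 ± 0.323 CPM in mutants and 7.06 ± 0.470 CPM in wildtypes (SD, n = 3 each; log2 fold change -0.05, SE 0.0962, adjusted p = 0.748).

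CLC genes were tested for 9 of 10, and 1 rose. *clcn3*, an exchanger of endosomes, had 72.7, 71.0 and 74.5 CPM in mutants, against 65.7, 64.6 and 65.4 CPM in wildtypes. The groups did not overlap, yet the difference was only 1.11-fold (log2 fold change 0.16, SE 0.0430, adjusted p = 0.0157), and without wildtype B or C the adjusted p was as high as 0.0594. *clcn7*, of lysosomes, had 31.6 ± 1.81 CPM in mutants and 28.8 ± 0.346 CPM in wildtypes (SD, n = 3 each), without overlap, and did not pass (adjusted p = 0.0899). The kidney type *clcnk* had 0.648 ± 0.220 CPM in mutants and 0.896 ± 0.297 CPM in wildtypes (adjusted p = 0.317).

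**Figure D5:**
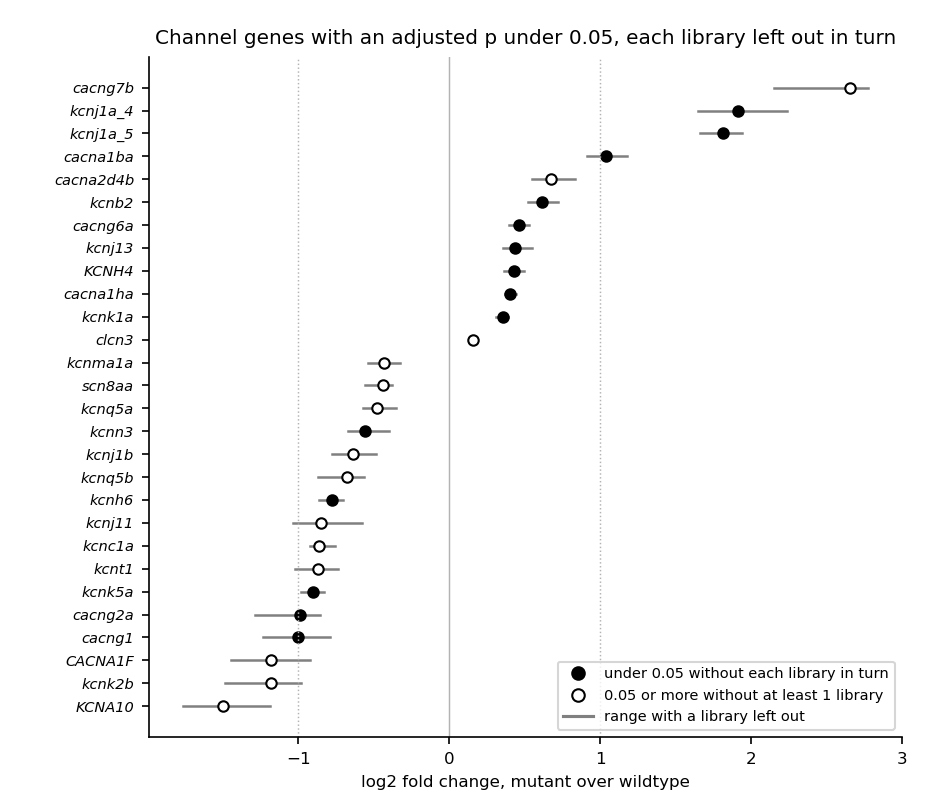
Log2 fold change, mutant over wildtype, of the 28 channel genes with an adjusted p under 0.05, with the range over fits that leave out 1 library each. Filled circles kept an adjusted p under 0.05 in all 6 such fits (14 genes), open circles did not; for *cacng7b* the fit without wildtype C is not drawn, since the wildtype libraries left then hold 0 counts.

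With 1 library left out, 24.4% to 33.0% of all genes tested passed the adjusted p, against 34.5% with all libraries. For the channel genes the shares were 15.7% to 24.8%, against 24.3%. As the plot of leave-one-out ranges shows, 14 of the 28 channel genes passed with each of the 6 libraries left out, and the other 14 lost the call at least once. Of those described above, *kcnk5a*, *kcnh6*, *kcnn3*, *cacng1* and *cacng2a* among the falls and *kcnk1a*, *kcnb2*, *kcnj13*, *KCNH4*, *cacna1ha*, *cacna1ba*, *cacng6a*, *kcnj1a_4* and *kcnj1a_5* among the rises kept it.

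Genes that work beside these channels were counted in the same fit. Among 52 tested genes of a list of channels under other symbols 12 rose and 2 fell, with a median log2 fold change of 0.02. The list was drawn up with some voltage-gated sodium channel pore genes, such as *scn1laa*. *scn1a*, which is among the 169 channel genes, is listed as its synonym, so the same gene may be counted in both sets. The risers included *nalcn*, the sodium leak channel (0.42, SE 0.122, adjusted p = 0.0195), and both *stim1* genes, which sense calcium stores (*stim1a* 0.45, *stim1b* 1.00). *trpm1b*, a melastatin-type channel gene, fell (-0.96, SE 0.136, adjusted p = 0.000359). Pumps and exchangers, 38 tested, held 4 rises and 4 falls, and the sodium pump genes *atp1a1a_2* (log2 fold change 0.78) and *atp1a1a_3* (-1.37) went opposite ways. These belong to a set of similar neighbouring genes, and their division of reads is uncertain.

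Among 47 tested partners of channels 9 rose and 9 fell, with a median of -0.13. The falls included *stac3*, a chaperone of the muscle L-type channel (log2 fold change -0.76, adjusted p = 0.00683), the junctophilin genes *jph1b* and *jph2* (-0.60 and -0.47), and the calcium release channel genes *ryr1a* and *ryr2b* (-0.36 and -0.55). Their relatives *jph1a* (-0.27), *ryr1b* (-0.17) and *ryr3* (-0.67) did not pass. The rises included the ankyrin gene *ank2b* (0.32) and the genes *ank3a* (0.46) and *ank3b* (0.19), whose mammalian relative anchors sodium channels. *dpp6a* (0.76), whose mammalian relative binds Kv channels, rose too. The part of the muscle markers in the falls of the *stac3*, *jph* and *ryr* genes was not tested.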

How the data were processed

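RSEM was run by the authors on strand-specific reads against the DanRer7 transcriptome, ribosomal RNA was taken out, and the values deposited are RSEM's expected counts, neither normalized nor always whole. The submitters' processing notes also list FastQC, RSEM 1.2.28, DESeq2, danRer7 and GRCz10. The authors' DESeq2 table (mean counts, fold changes, standard errors, test statistics and p-values) was not used. Columns carry genotype and letter but no replicate number, so each was assigned to its genotype, and 0 columns of per-library values were left out.

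Expected counts were rounded, filtered with filterByExpr, scaled by TMM and compared with edgeR 4.0.16 (glmQLFit, glmQLFTest) in R 4.3.3, with Benjamini-Hochberg adjustment over 20021 genes. A call needs an adjusted p under 0.05, and a log2 fold change over 1 in size where a fold change over 2 is named. The SE is the size of the log2 fold change divided by the square root of F. An exact permutation test of 3 against 3 cannot go below p = 0.1. The fit was tested on simulated data. With limma 3.58.1 and DESeq2 1.42.0, the alternatives were other scalings, tests, filters and thresholds, and each library left out. Bounds against 0 use 3 counts over the group and intervals are 95% exact binomial.

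Of the 169 genes, 112 matched a symbol and 11 a synonym of assembly GRCz12tu, used only for names and gene order. The other 46 matched neither, among them *KCNH4*, *kcnb2*, *KCNA10* and *kcnt1*. What is said of the genes that matched neither rests on their symbols alone. Case matters: 22 genes share 11 names apart from case. The expected counts of 56 were not whole in every library (tolerance 0.005), as RSEM divided reads between genes. Of these 56 genes 47 were tested, of which 10 rose and 5 fell (31.9% passed). Of the 113 with whole counts 68 were tested, of which 2 rose and 11 fell (19.1%). Over all genes tested 34.5% passed. The median levels of these 2 sets were 2.95 and 0.629 CPM. The part of the division of reads in the calls was not tested. Named genes are the calls with a fold change over 2, the 10 largest rises and falls at a mean of at least 1 CPM, the best counted gene of each family and genes with well known roles. The values of single sodium channel beta subunit genes are not reported here. Others (*kcnc1a*, *kcnt1*, *kcnma1a*, *scn8ab*, *scn4ab*, *clcn1b*, *cacna1bb*, *cacna1g*, *cacna2d1a*, *cacna2d4a*, *cacng6b*, *HCN2*, *kcnk9*, *CACNG4*, *kcnj1a_3*, *kcnj1a_6* and the companion genes) were chosen after their values were seen. The members, families and lists were chosen with earlier results of these data known. The lists comprise channels under other symbols, pumps, channel partners and markers of 12 cell types or stages. The pronephros list also holds *clcnk*, which is among the 169 genes.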

Additional observations from a re-analysis of the deposited data

How the results depend on the processing

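The 8 channel genes called with a fold change over 2 were 2 when only genes over 1 CPM in 3 or more libraries were kept (58 channel genes tested), 4 at an adjusted p under 0.01, 28 with no limit on the fold change, which was added after seeing the data, and 3 to 12 with 1 library left out. Under that CPM filter 3.45% of channel genes and 3.29% of all genes tested were called, and the calls over all genes were 552 in place of 992. At an adjusted p under 0.01 the calls over all 20021 genes tested were 719 in place of 992. With no limit on the fold change the shares were 24.3% of channel genes and 34.5% of all genes. With 1 library left out, 4.29% to 5.11% of all genes tested were called with a fold change over 2, against 2.48% to 10.1% of channel genes. Falls at any fold change numbered 16, 4 at an adjusted p under 0.01, and 7 to 18 with 1 library left out, the 7 without wildtype A or without wildtype C. Without these wildtypes the share of all genes that passed also dropped, from 34.5% to 24.4% and 25.1%. Rises numbered 12, 9 at an adjusted p under 0.01, and 10 to 15 with 1 library left out. The shares of all genes that rose or fell at an adjusted p under 0.01 are not given here. The median log2 fold change of the channel genes was -0.0594, -0.116 with limma-voom, -0.000111 under the CPM filter, and -0.137 to -0.00608 with 1 library left out, the extremes without mutant C and mutant D. These medians rest on different sets of genes where the filter changes. DESeq2's size factors lost *cacng1*, which sits at the fold limit, and DESeq2's Wald test lost *KCNA10* and *kcnk2b*. Without the filter on low counts *kcnk9*, *CACNG4* and *clcn2* were gained and *kcnk2b* was lost.

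Signs changed for genes that did not pass, over fits with 1 library left out: *kcnk6* ranged between -0.028 (without mutant D) and 0.13, *cacna1sb* between -0.31 and 0.050 (without mutant D), *kcnh2a* between -0.40 and 0.0078 (without wildtype C), and *cacna1c* between -0.53 and 0.072 (without wildtype A), with 0.0055 without mutant C. The causes were not tested. No paired analysis was possible because the columns of the count table carry letters and no replicate number of the labels, so the replicate block was not run. Depth limits 54 of the 169 genes, which could not be tested, and most low genes, where a few counts in 1 library decide a call.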

Other observations

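The remaining marker lists were counted in the same fit, as a description of the embryos in which the channel genes were measured. Of 14 blood markers tested 10 rose and none fell, with a summed level of 328 to 383 CPM in mutants, against 234 to 260 CPM in wildtypes. Among 11 notochord and floor plate markers 7 rose and 2 fell, and they summed to 2727 to 3733 CPM in mutants, against 2299 to 2635 CPM in wildtypes. Germ cell markers, 8 tested, held 6 rises and 1 fall, with sums of 35.9 to 50.8 CPM in mutants, against 15.6 to 18.2 CPM in wildtypes. Genes of earlier stages, 11 tested, held 6 rises and no fall, with sums of 118 to 135 CPM in mutants, against 75.6 to 92.8 CPM in wildtypes. Otic markers, 10 tested, held 2 falls and no rise, with sums of 233 to 252 CPM in mutants, against 283 to 289 CPM in wildtypes. The count table holds no gene with fewer than 11 counts over all libraries, so a marker without counts could not appear in any list. The part of these lists in the values of the channel genes was not tested.

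Among the 11 symbols that occur in both cases as separate genes, the entries of some pairs differed in how their summed counts compared between groups. *CACNA1F* fell, while *cacna1f*, below the filter and listed as a synonym of *cacna1fb*, had a rounded sum of 29 counts in mutants, against 12 in wildtypes. *CLCN2* had a rounded sum of 435 counts in mutants, against 372 in wildtypes, and *clcn2*, a synonym of *clcn2a* below the filter, had 10, against 46. *cacng4* had a rounded sum of 123 counts in mutants, against 104 in wildtypes, and *CACNG4* 3, against 35. *kcnq3* had 9, against 8, too near to give a direction, and *KCNQ3* 3, against 10, both below the filter. The expected counts of these last entries were not whole, so their division of reads is uncertain. Neither *CLCN2* (adjusted p = 0.313) nor *cacng4* (adjusted p = 0.506) passed, and the groups overlapped for both. These pairs were picked after their values were seen and the differences within them were not tested.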
